A study of Rattus norvegicus with 2 samples.

Results

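Mitochondrial ribosomal protein genes were described in the urine RNA of rats with and without an obstructed ureter. They were taken as the entries of the gene table that carry a number-only rat NCBI gene ID and whose RefSeq symbol starts with Mrpl or Mrps followed by a number. This gave 70 genes, 43 Mrpl and 27 Mrps, among 16484 number-only gene IDs and 113011 features in all. The match was case-sensitive, so a gene with the lower-case symbol mrpl11 is not among the 70. Its log2 difference, on the scale used below, was -0.96. RefSeq lists all 70 as protein-coding, and holds 78 protein-coding symbols of this form.

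Sprague Dawley rats, 8 weeks old, had their right ureter tied off (UUO, unilateral ureteral obstruction, which leads to scarring of the kidney) or had the operation without the tie (sham, labelled WT). Urine was drawn from the ureter through a catheter 2 weeks later, per the study's methods. Each group has 1 library, and how many rats gave urine to it is not stated. The values are FPKM, fragment counts divided by transcript length and by the size of the library, so levels of different genes are on a scale per length.

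No difference given here has a replicate check, and no p-value was computed. The table abbreviates its conditions, and the assignment of its columns to WT and UUO rests on the series title and on the headings of the study's published lists. Every direction would turn if that assignment were wrong. In urine RNA, fewer cells of a type and less RNA per cell cannot be told apart.

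Mitochondria keep a ribosome of their own, which translates the few proteins that the mitochondrial genome encodes, all of them core subunits of the respiratory chain and ATP synthase. Its ribosomal RNA comes from mitochondrial DNA, while its proteins are encoded by nuclear genes, made in the cytosol and imported. Some of them belong to families shared with bacterial ribosomes, and others are found only in mitochondria. The kidney tubule, with its heavy load of active transport, is rich in mitochondria.

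Depth was read from the steps between FPKM values of assembled features. The normalising total came to 2116000 fragments in the WT library and 2442000 in the UUO library, with 93.5% of 186 and 99.4% of 3530 values within 0.1 of a whole number of fragments. On a transcript of 1000 bases, 1 fragment stood for an FPKM of 0.542 in the WT library and 0.496 in the UUO library. On a transcript of 500 bases it stood for 1.27 and 1.26. An FPKM of 10 on 1000 bases is thus about 18.5 fragments in the WT library and 20.1 in the UUO library, so that small folds between members lie within counting error. The lengths of the members' transcripts were not used here. As a check of the tissue, markers of urothelium were at FPKM of at least 1 for 5 of 6 genes in WT and 6 of 6 in UUO urine, and tubule markers for 7 of 7 and 6 of 7. Red-cell markers were at that level for 2 of 4 genes in WT and 4 of 4 in UUO urine, leukocyte markers for 1 of 6 and 6 of 6, and the male accessory gland markers of the list for 0 of 3 in each library. Genes of another male accessory gland product were high in the WT library alone. The 3 genes of prostatein, a secreted protein of the rat prostate, were looked up after the data were seen. Scgb1d2 was at 9354 in the WT library and listed at 0 in the UUO library, Scgb1d4 was at 6798 and listed at 0, and Scgb2a1 was at 177 and 1.12. They held 4.84% of the summed FPKM of number-only genes in the WT library and 0.00041% in the UUO library. The 4 red-cell genes held 0.727% of the summed FPKM of number-only genes in the WT library and 28.6% in the UUO library. The 6 leukocyte genes summed to 7.55 in the WT library and 138 in the UUO library.

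Most mitochondrial ribosomal protein genes were seen in both libraries, at moderate levels. Their median FPKM as deposited was lower in UUO urine, as was that of all number-only genes. With a detection limit of 1 FPKM, 56 of the 70 genes were detected in the WT library and 63 in the UUO library. All 56 genes seen in WT were also seen in UUO urine, and 7 were seen in UUO urine alone. Of all 16484 number-only genes, 7793 were detected in the WT library and 9278 in the UUO library. Of the 9853 seen in either library, 575 were seen in WT urine alone and 2060 in UUO urine alone. Over the 63 members seen in either library, the median FPKM was 26.5 in the WT library and 14.0 in the UUO library. Their middle ranges (25th to 75th percentile) were 12.8 to 37.4 and 8.01 to 20.9. Over all 9853 number-only genes seen in either library, the median FPKM was 10.3 in the WT library and 6.78 in the UUO library. Summed over all members, FPKM was 2089 in the WT library and 978 in the UUO library, 0.619% and 0.360% of the sum over number-only genes. The sum was 2.14 times as high in the WT library, and the shares lay in the same direction. Shares do not depend on how a library is scaled, but they do depend on the other genes in the sum. The 4 red-cell genes held 0.727% of that sum in the WT library and 28.6% in the UUO library. The 3 prostatein genes went the other way, with 4.84% and 0.00041%. The part of these genes in the members' shares was not tested.

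Of the 63 genes at FPKM of at least 1 in either library, 51 had a log2 difference below 0 and 12 above it. The difference is that of log2(FPKM + 1) in UUO minus WT urine, which understates the change of low genes. By a limit of 2-fold (1 on this scale), 29 members (46.0%) were lower in UUO urine, 8 (12.7%) were higher and 26 lay between. Over all 9853 number-only genes with the same filter, 36.5% were lower and 25.7% higher. The median log2 difference was -0.92 for the members and -0.51 for all genes. After UUO values were rescaled by the median ratio of the libraries, 8 members were lower and 12 higher, and the medians were -0.07 and 0.46. The red-cell, leukocyte and prostatein values given above moved with the groups, and their part in the result was not tested. With both libraries scaled to equal sums without the 4 red-cell genes, a setting chosen after seeing the data, 10 members were lower and 10 higher, with medians of -0.17 for the members and 0.33 for all genes. With the prostatein genes left out of the sums as well, 12 were lower and 10 higher, with medians of -0.24 and 0.26.

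Filters on level changed the comparison. Where FPKM reached 5 in either library, 29 of 62 members (46.8%) and 44.8% of 7424 genes were lower in UUO urine, with medians of -0.95 and -0.85. Higher past 2-fold were 11.3% of these members and 14.0% of these genes. The share of lower members was thus near the background among these genes. Where FPKM reached 1 in both libraries, 29 of 56 members (51.8%) were lower against 42.8% of 7218 genes, and 1 member (1.79%) was higher against 7.01%. At FPKM of at least 1 in either library, the interquartile range of the log2 difference was 1.26 for the members and 2.44 for all genes. For nuclear genes of oxidative phosphorylation it was 1.52. The set of all genes holds 575 genes detected in WT urine alone and 2060 in UUO urine alone. No spread was computed at a matched level, so a closer spread is not shown to be particular to the members.

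**Figure D1:**
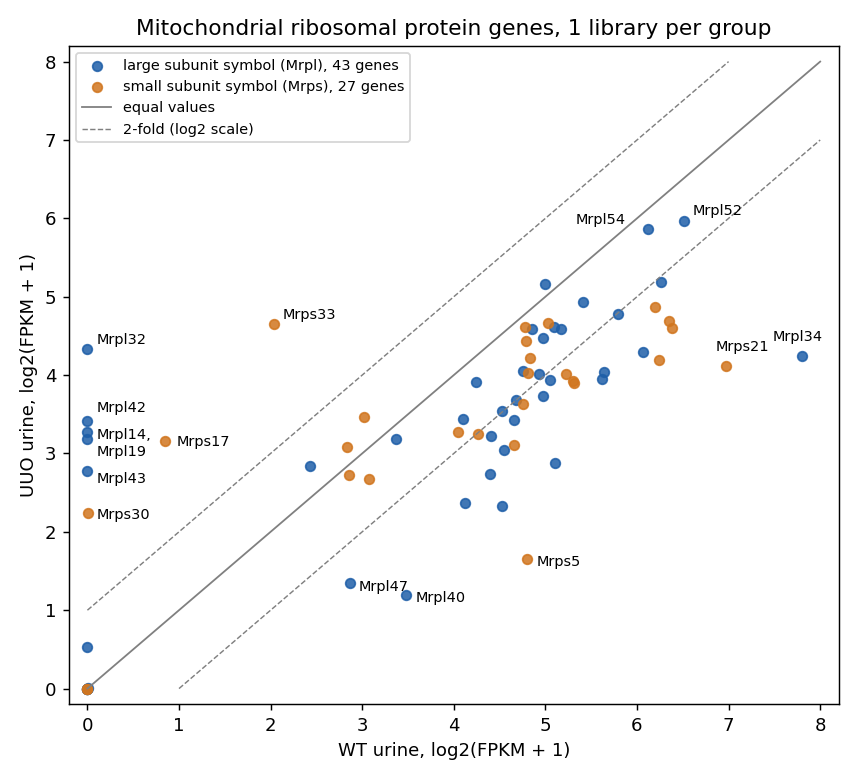
FPKM of each of the 70 mitochondrial ribosomal protein genes in WT (x axis) and UUO urine (y axis), as log2(FPKM + 1), with 1 point per gene and 1 library per group. Most points lie below the line of equal values, 29 of them below the lower dashed 2-fold line, and a column of genes at or near 0 in WT urine stands at the left.

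The order of the members' levels was kept in part. Over the 56 genes detected in both libraries, Spearman's rho between WT and UUO FPKM was 0.706 and Pearson's r on the log2(FPKM + 1) scale was 0.597. Over all 7218 number-only genes detected in both libraries, rho was 0.681 and r was 0.718. The members' order was thus kept about as well as that of all genes. These coefficients describe genes of 1 pair of libraries. Of the 10 members with the highest FPKM in WT urine, 5 were also among the 10 highest in UUO urine. The 5 highest members held 28.7% of the members' summed FPKM in the WT library and 22.4% in the UUO library, with only 1 gene in common. That gene was Mrpl52, a mitochondria-specific protein of the large subunit, at 90.3 in the WT library and 61.7 in the UUO library.

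Among large subunit genes, 17 of 38 detected genes were lower and 5 higher past 2-fold, with a median log2 difference of -0.95. All 38 reached FPKM 5 in either library, and their shares of 44.7% lower and 13.2% higher were near those of all genes past that level, 44.8% and 14.0%. The highest level in WT urine was that of Mrpl34 (ID 290632, chromosome 16, 19735359 to 19736141, build rn5 as for all loci below), a small basic protein with a bacterial counterpart. Its FPKM was 221 in the WT library and 18.01 in the UUO library, 12.3-fold apart, with a log2 difference of -3.55. It ranked 1 of 70 in the WT library and 20 in the UUO library. The locus spans under 1000 bases. The length correction fitted from the steps was 128 bases in the WT library and 175 in the UUO library, and its part in the values of short genes was not tested.

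The next 3 large subunit genes by size of the difference toward WT urine are mitochondria-specific proteins. Mrpl40 (chromosome 11, 89378581 to 89384418), the only entry of its locus, had an FPKM of 10.2 in the WT library and 1.29 in the UUO library, a log2 difference of -2.29. Mrpl37 (chromosome 5, 130501429 to 130517634) was at 33.3 and 6.38, a difference of -2.22. Mrpl45 (chromosome 10, 85047797 to 85059773), which lies at the exit of the peptide tunnel and links the ribosome to the inner membrane, was at 22.1 and 4.04, a difference of -2.19. All 3 were lower in UUO urine by more than 4-fold on that scale. The UUO value of Mrpl40 lies below 1.49, the FPKM of 3 fragments on 1000 bases in that library, so its fold is uncertain. Mrpl44, which has a ribonuclease III fold, was at 66.0 and 18.6, a difference of -1.77.

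Genes with a known place in the large subunit differed by different amounts. The stalk, where translation factors dock, is built by Mrpl10 and Mrpl12. Mrpl10 was at 30.4 in the WT library and 12.3 in the UUO library (-1.24 on the log2 scale). Mrpl12 was at 54.6 and 26.6 (-1.01). Both lie past the 2-fold limit, Mrpl12 only just. Of the proteins around the tunnel exit besides Mrpl45, Mrpl22 was at 20.2 and 8.36 (-1.18), Mrpl23 at 33.3 and 23.4 (-0.49) and Mrpl47 at 6.28 and 1.54 (-1.52). Mrpl27, whose bacterial relative reaches to the peptidyl transferase centre, was at 75.6 and 35.4 (-1.07). Mrpl58, a peptidyl-tRNA hydrolase that became part of the ribosome, was at 30.4 and 21.2 (-0.50). These members were chosen for their role after their values were seen.

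Several large subunit genes were nearly level. Mrpl54, a mitochondria-specific protein, was at 68.5 in the WT library and 57.3 in the UUO library (-0.25), Mrpl53 at 41.6 and 29.6 (-0.47), and Mrpl17 at 30.8 and 34.7 (0.17). Mrpl35 was at 4.40 and 6.18 (0.41). These 4 were within 2-fold, so that Mrpl54 moved from rank 9 in WT to rank 2 in UUO urine while its FPKM was a little lower.

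Among small subunit genes, 12 of 25 detected genes (48.0%) were lower and 3 (12.0%) higher past 2-fold, with a median of -0.78. Where FPKM reached 5 in either library, 12 of 24 were lower and 2 (8.33%) higher. Over all genes past that level 44.8% were lower and 14.0% higher, so the small subunit genes were near the background. The difference of the small from the large subunit genes was not tested. Mrps21 (ID 689432, chromosome 2, 217465575 to 217473730), a small protein with a bacterial counterpart, had an FPKM of 125 in the WT library and 16.4 in the UUO library, 7.62-fold apart, a log2 difference of -2.86. Mrps5 (ID 296134, chromosome 3, 127150027 to 127166611), a member of the family that in bacteria lines the path of the incoming mRNA, was at 26.9 and 2.14, 12.6-fold apart, a difference of -3.15. Both were lower in UUO urine by more than any other Mrps gene. On 1000 bases, 3 fragments stand for an FPKM of 1.49 in the UUO library. The UUO value of Mrps5 would thus be few fragments at that length, and its fold is uncertain.

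Mrps12, whose bacterial relative sits at the decoding centre, was at 80.7 in the WT library and 24.7 in the UUO library (-1.67). Mrps34, a mitochondria-specific protein, was at 74.6 and 17.2 (-2.05), and Mrps18b at 82.3 and 23.3 (-1.78). Mrps7, a protein of the head of the subunit, was at 72.2 and 28.3 (-1.32). These 4 genes were among the 8 highest in WT urine, each at over 70, and stood between 17.2 and 28.3 in UUO urine. Mrps27, a pentatricopeptide repeat protein, was at 24.2 and 7.59 (-1.55). Mrps12, Mrps34, Mrps7 and Mrps27 were chosen for their role after their values were seen.

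Within 2-fold were Mrps14 at 7.11 in the WT library and 10.05 in the UUO library (0.45), Mrps31 at 6.13 and 7.44 (0.24), and Mrps22 at 6.22 and 5.64 (-0.12). At these levels the 3 differences amount to few fragments. An overlapping entry at the locus of Mrps31, NONRATT023549, was at 8.65 in the WT library and 0 in the UUO library, and the sum with the overlapping entries turned the sign of Mrps31, to -0.78. The only member past 2-fold in the direction of UUO urine among the 56 seen in both libraries was Mrps33 (ID 296995, chromosome 4, 67414402 to 67417862), a small mitochondria-specific protein. Its FPKM was 3.09 in the WT library and 24.1 in the UUO library, 7.80-fold apart, a log2 difference of 2.62. In the WT library, 3 fragments on 1000 bases stand for an FPKM of 1.63. The fold of Mrps33 thus rests on a low WT value and is uncertain.

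The symbols do not follow the structure throughout. Mrps30 and Mrps18a bear names of the small subunit but sit in the large subunit of the mammalian ribosome. Mrps18a was at 38.3 in the WT library and 14.2 in the UUO library (-1.38). By protein family, 17 of 36 detected genes of families shared with bacteria were lower and 4 higher, with a median of -0.96. Of the mitochondria-specific genes 12 of 27 were lower and 4 higher, with a median of -0.66. Where FPKM reached 5 in either library, 47.2% of the 36 and 46.2% of 26 mitochondria-specific genes were lower. Higher were 11.1% and 11.5%. Over all genes past that level 44.8% were lower and 14.0% higher, so both groups were near the background. The counts of both groups lie side by side and their difference was not tested.

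**Figure D2:**
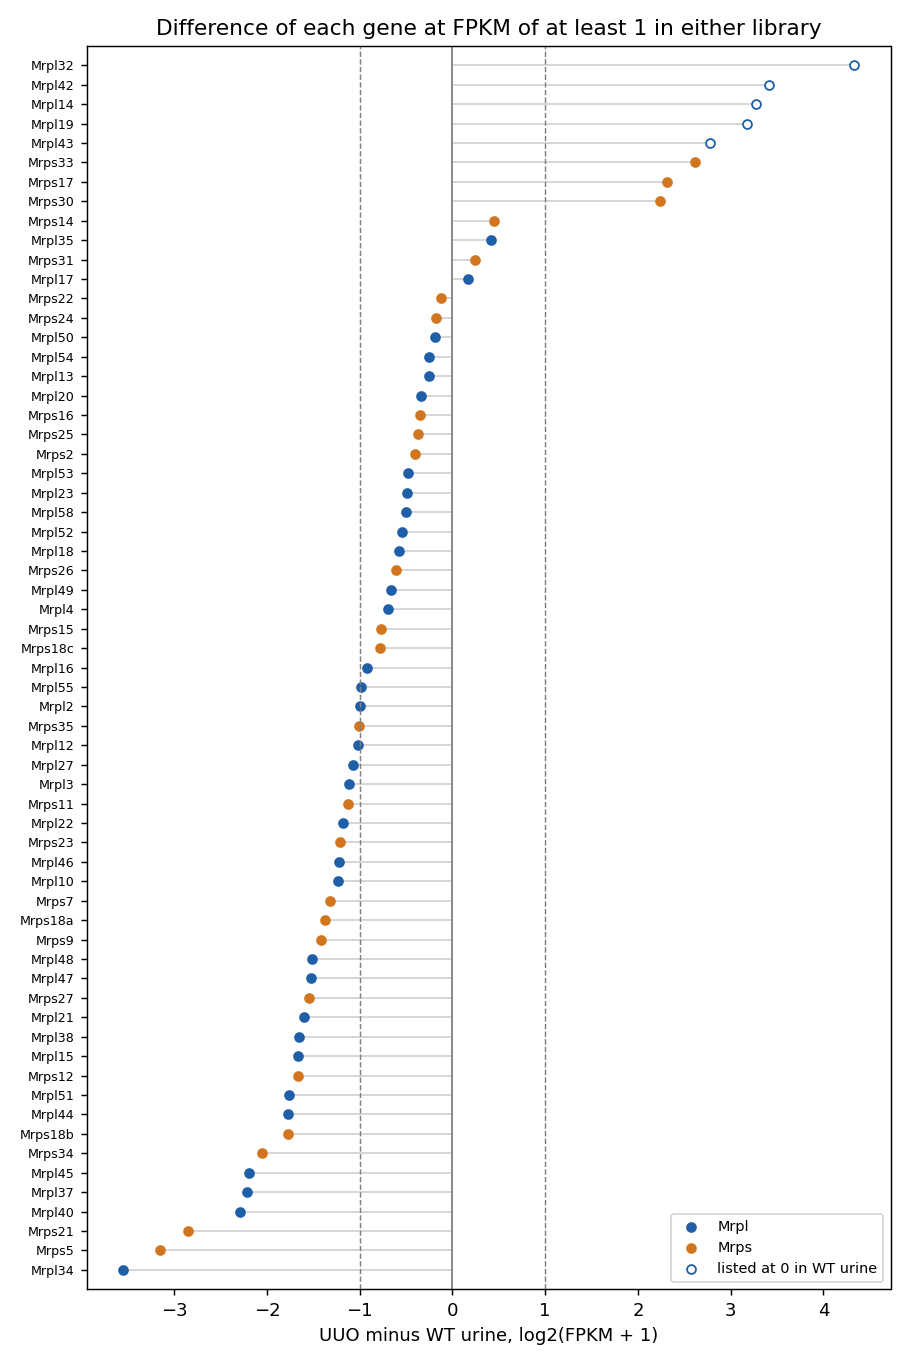
Log2 difference (UUO minus WT urine, on the log2(FPKM + 1) scale) of the 63 mitochondrial ribosomal protein genes at FPKM of at least 1 in either library, in rank order, with dashed lines at 2-fold. Mrpl and Mrps genes are mixed throughout, and open points mark 5 genes listed at 0 in WT urine.

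Of the 8 members that were higher in UUO urine, 5 were listed at 0 in WT urine. Mrpl32 (ID 291206, chromosome 17, 50802292 to 50805161), which must be cut by the m-AAA protease before it joins the ribosome, was listed at 0 in WT and had an FPKM of 19.1 in UUO urine. Mrpl42 was listed at 0 and 9.65, Mrpl14 at 0 and 8.67, Mrpl19 at 0 and 8.06, and Mrpl43 at 0 and 5.86. No fold is given for these, since a listed 0 can be a failed estimate. For comparison, 3 fragments on 1000 bases would stand for an FPKM of 1.63 in WT urine. Of the 57 members with FPKM of at least 5 in UUO urine, 8.77% had a WT value of 0, against 8.59% of 5855 such genes in all. The members are thus near the background in this respect too. No member was listed at 0 in UUO urine alone.

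The other 3 were Mrps33, Mrps17 and Mrps30. Mrps17 (chromosome 12, 32511013 to 32514268), with a bacterial counterpart, was at 0.803 in the WT library and 7.97 in the UUO library, a log2 difference of 2.31. Mrps30 was at 0.00091 in the WT library and 3.72 in the UUO library, a difference of 2.24. The WT value of Mrps17 is below the mark of 3 fragments on 1000 bases.

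Some of these zeros stood beside signal in overlapping noncoding entries, whose IDs start with NONRATG or NONRATT. Of the 70 members, 65 shared their listed locus with such entries or with assembled features and 13 with another gene, and 5 were alone. The 10 entries at the locus of Mrpl43 (chromosome 1, 272197932 to 272205288) include NONRATG004018, with an FPKM of 36.2 in the WT library and 0 in the UUO library. Summed over Mrpl43 and its noncoding and assembled entries, FPKM was 46.2 in the WT library and 10.4 in the UUO library, so that the direction was opposite, with a log2 difference of -2.05. At the locus of Mrps30, NONRATT030974 was at 9.23 in the WT library and 0 in the UUO library, and the summed values were 9.23 and 4.55, a difference of -0.88. Mrpl57, listed at 0 in both libraries, shares its locus with NONRATT020529 at 37.5 in the WT library and 19.1 in the UUO library. These sums and entries were chosen after the values were seen, and FPKM of entries of different length do not strictly add.

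In 6 members in the WT library and 3 in the UUO library they summed to more than the member itself and to at least 1. At Mrpl37 they summed to 37.5 in the WT library and 2.04 in the UUO library, in the same direction as the gene. At Mrpl15 the gene was at 48.0 and 14.5 while NONRATT042572 was at 15.5 and 25.7, and at Mrpl51 the gene was at 16.5 and 4.15 while NONRATT040479 was at 0 and 12.8. The locus entries of Mrpl15 and Mrpl51 thus went against the gene. With the overlapping entries added, the log2 difference of Mrpl15 was -0.64 in place of -1.66, and that of Mrpl51 was 0.24 in place of -1.76, with the sign turned. Such sums turned the sign of 5 of the 63 detected members, namely Mrpl43, Mrps30, Mrpl51, Mrps31 and Mrpl50, the last from -0.19 to 0.23. For Mrpl32, Mrpl14, Mrpl19 and Mrpl42 the overlapping entries summed to between 0 and 0.329 in WT urine.

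**Figure D3:**
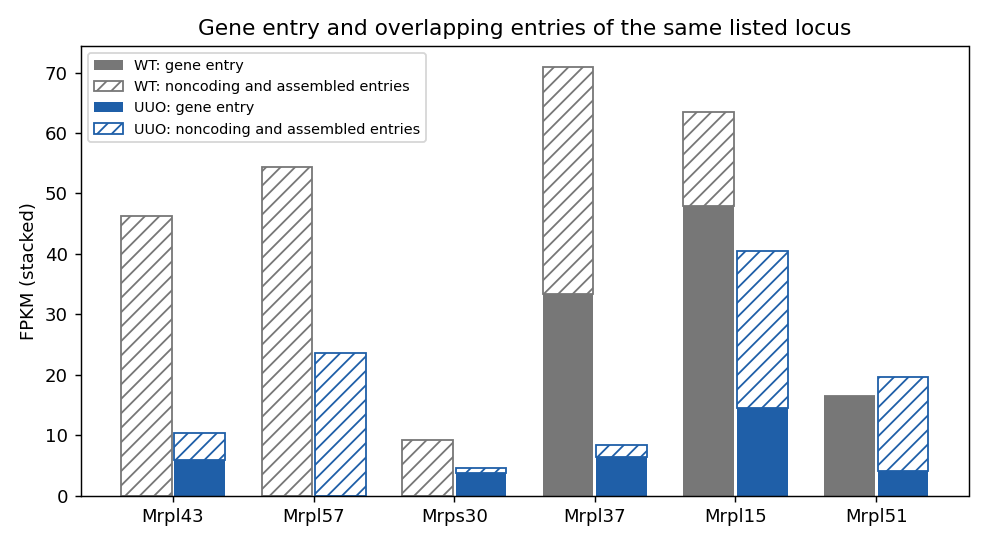
FPKM of 6 mitochondrial ribosomal protein genes (solid) and, stacked on it, the summed FPKM of noncoding and assembled entries with the same listed locus (hatched), in WT (grey) and UUO urine (blue). For Mrpl43, Mrpl57 and Mrps30 all or nearly all of the WT signal lies in the overlapping entries.

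Listed at 0 in both libraries were 5 members. These were Mrpl30, Mrpl36, Mrpl57, Mrps10 and Mrps28. Mrpl30 and Mrpl36 are alone at their loci. At Mrps10 and Mrps28 the overlapping entries summed to at most 1.63 in either library. Mrpl41, at about 0.001 in each library, and Mrpl1, listed at 0 in WT and at 0.447 in UUO urine, are listed on chromosome 8, whereas RefSeq places both genes on other chromosomes. Of 16329 number-only genes that could be compared, 305 (1.87%) were so displaced. The values of Mrpl1 and Mrpl41 belong to those listed loci, and no level of the genes is read from them.

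The nearest lists for comparison were the cytosolic ribosomal protein genes and the nuclear genes of oxidative phosphorylation, whose partner subunits the mitochondrial ribosome makes. Of 72 detected oxidative phosphorylation genes, 44.4% were lower and 9.72% higher past 2-fold, with a median of -0.96, beside 36.5%, 25.7% and -0.51 over all number-only genes. Where FPKM reached 5 in either library, 46.4% of these genes were lower, near the 44.8% of all genes. Of 58 detected cytosolic ribosomal protein genes, 24.1% were lower and 39.7% higher, with a median of 0.36. The medians of both kinds of ribosomal protein gene thus lay on opposite sides of 0, 1.28 apart on the log2 scale, and this gap was not tested. Median FPKM of the cytosolic list was 94.2 in the WT library and 131 in the UUO library, against 26.5 and 14.0 for the mitochondrial one. Cytosolic ribosomal protein genes have many near-identical pseudogenes, so their FPKM is uncertain.

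**Figure D4:**
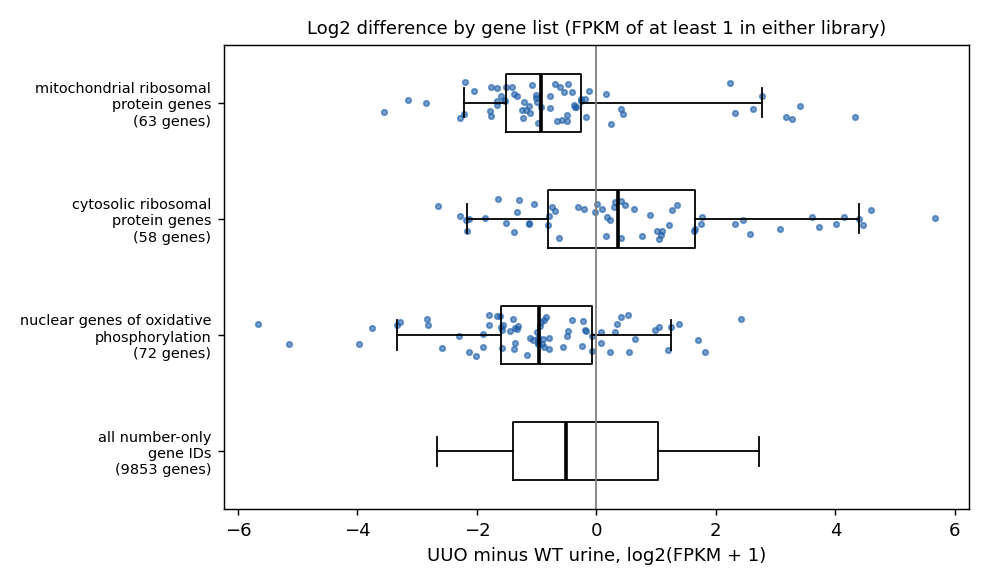
Log2 difference (UUO minus WT urine, log2(FPKM + 1) scale) of genes at FPKM of at least 1 in either library, for 4 lists; the box spans the 25th to 75th percentile, the line in it is the median, the whiskers reach the 5th and 95th percentiles, and points are single genes. The mitochondrial ribosomal and oxidative phosphorylation lists centre at -0.92 and -0.96, and the cytosolic ribosomal list at 0.36.

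Other genes of mitochondrial translation were counted from a list of 62 symbols, 58 of which were found. Of the 55 at FPKM of at least 1 in either library, 20 (36.4%) were lower and 10 (18.2%) higher past 2-fold, with a median of -0.56. The share of lower genes and the median were near those of all number-only genes, 36.5% and -0.51, and the share of higher genes was below 25.7%. The 10 higher ones were all listed at 0 in WT urine. Among 5 ribosomal proteins with other names, 3 were lower and 0 higher. Of 21 detected assembly and rRNA-modifying factors 11 were lower and 2 higher, of 9 translation factors 3 and 2, of 14 mitochondrial aminoacyl-tRNA synthetases 2 and 4, and of 6 genes of mitochondrial transcription and RNA stability 1 and 2.

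The greatest difference toward WT urine on this list was that of Mrm2, a methyltransferase of the large ribosomal RNA, at 24.2 in the WT library and 1.43 in the UUO library (-3.37). Its UUO value lies below 1.49, the FPKM of 3 fragments on 1000 bases in that library. Next were Chchd1, a small subunit protein, at 153 and 16.5 (-3.14), and Tsfm, the elongation factor Ts, at 82.5 and 9.22 (-3.03). In the other direction, Tfam, which packs mitochondrial DNA and starts its transcription, was listed at 0 in WT and at 10.6 in UUO urine. Fars2 and Sars2, synthetases for phenylalanine and serine, were listed at 0 in WT and at 6.39 and 4.18 in UUO urine.

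Promoters were not used to choose the members. RefSeq promoter windows (GRCr8, 250 bases before to 50 after the start) were matched for 56 of the 70 members. The core CCGGAA of the motif bound by ETS factors such as GABP, a known regulator of nuclear genes for mitochondria, was found on either strand in 30 of them (53.6%), against 15.8% of 27457 promoters in all and 21.7% of 13071 promoters of genes in the table. The longer form CCGGAAGT, which contains the core, was found in 8 (14.3%) against 4.01% of all and 6.17% of table gene promoters. The palindromic motif of NRF1, another regulator of such genes, was found in 9 (16.1%) against 4.71% and 7.51%. The core was chosen after the longer form had been counted. Among detected members, the 25 with the core had a median log2 difference of -1.01 and the 25 without it of -0.77, so that both medians were below 0.

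The 120 bases before the start are shown for the 4 members of highest mean FPKM that hold the core there, leaving out members whose head-to-head neighbour starts within these bases. They are also shown for Mrpl34, Mrps21 and Mrps33, with some of the greatest differences, and for Mrpl32, listed at 0 in WT urine. Capitals mark CCGGAA or its reverse complement and the NRF1 motif. Positions are those of GRCr8.
Mrpl52, chr15:31852816-31852935, plus strand: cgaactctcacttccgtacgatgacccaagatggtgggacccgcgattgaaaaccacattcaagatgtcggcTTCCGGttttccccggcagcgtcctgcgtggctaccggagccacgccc
Mrpl44, chr9:88554930-88555049, plus strand: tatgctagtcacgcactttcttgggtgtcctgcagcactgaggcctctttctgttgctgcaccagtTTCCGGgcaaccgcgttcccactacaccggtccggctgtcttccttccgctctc
Mrpl53, chr4:117172923-117173042, plus strand: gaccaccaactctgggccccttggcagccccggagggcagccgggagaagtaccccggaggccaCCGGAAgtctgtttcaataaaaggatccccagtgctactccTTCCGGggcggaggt
Mrpl23, chr1:207116810-207116929, plus strand: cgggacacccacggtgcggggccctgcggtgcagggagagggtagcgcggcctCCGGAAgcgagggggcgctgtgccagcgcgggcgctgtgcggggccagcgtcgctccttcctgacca
Mrpl34, chr16:18186327-18186446, plus strand: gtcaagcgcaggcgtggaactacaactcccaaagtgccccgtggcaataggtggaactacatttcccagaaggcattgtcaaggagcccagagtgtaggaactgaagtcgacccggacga
Mrps21, chr2:186103352-186103471, minus strand: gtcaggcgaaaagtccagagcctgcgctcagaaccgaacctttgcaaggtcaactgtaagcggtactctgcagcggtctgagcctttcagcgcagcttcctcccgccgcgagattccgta
Mrps33, chr4:69566939-69567058, minus strand: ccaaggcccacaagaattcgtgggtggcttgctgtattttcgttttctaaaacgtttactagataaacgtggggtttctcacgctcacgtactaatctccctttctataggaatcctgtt
Mrpl32, chr17:55260531-55260650, plus strand: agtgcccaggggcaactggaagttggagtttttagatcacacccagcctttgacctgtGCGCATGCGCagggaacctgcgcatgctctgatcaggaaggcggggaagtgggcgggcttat
Mrpl53 holds the core 2 times, and Mrpl34, Mrps21 and Mrps33 hold neither motif in these bases. A match describes letters only, and no match says nothing of the factor.

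Many members also start head to head with another gene. Of 56 members with a RefSeq start, 18 (32.1%) had a start on the opposite strand within 1000 bases upstream, against 10.3% of all 27457 and 12.6% of the 13071 genes in the table. Mrpl46 and Mrps11 form such a pair with each other, 234 bases apart in RefSeq, and so join a large and a small subunit gene. Mrpl46 was at 24.2 in the WT library and 9.76 in the UUO library (-1.23 on the log2 scale), and Mrps11 at 26.0 and 11.4 (-1.12), so that both genes had like levels and like differences.

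Other pairs varied. Mrpl32, at 0 and 19.1, starts 210 bases from Psma2, a proteasome gene at 41.1 in the WT library and 38.1 in the UUO library. Mrpl47, at 6.28 and 1.54 (-1.52), starts 244 bases from Ndufb5, a complex I gene at 37.4 and 26.2 (-0.50). Mrps18b (-1.78) starts 588 bases from Ppp1r10, at 55.0 and 14.9 (-1.82). Only the last of these 3 pairs had like differences. These pairs were chosen after their values were seen.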

How the data were processed

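RNA from 2 rat urine libraries, 1 WT (sham) and 1 UUO, was compared. The authors deposited 1 FPKM value per feature and library in a table of Cuffdiff layout. The submitters' processing notes name Bowtie2 2.0.6, TopHat2 2.0.9, Cufflinks 2.1.1, Cuffdiff 2.1.1 and the build rn5. Positions are as listed, without conversion, and a locus spans all overlapping features. The authors' fold changes, p-values and q-values in the table were not used.

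Symbols came from RefSeq (GRCr8), which matched 16329 of 16484 number-only IDs (99.1%). Changes were computed with a pseudocount of 1 and counted at 2-fold among genes at FPKM of at least 1 in either library (Python 3.11.15, pandas 2.3.3). The code for the fold counts was tested on simulated 4-fold changes without noise, which checks the arithmetic only. Fragment steps were fitted on assembled features alone at a locus of 400 to 1200 bp, which covers counting only. Alternatives were other pseudocounts, filters, limits and rescalings, and sums over a locus.

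A rule named the 6 members of highest mean FPKM. It also named the 6 with the greatest difference in each direction among those at FPKM of at least 1 in both libraries. Those at 0 in 1 library and at least 10 in the other, and those at 0 in both, were named too. So were the 3 greatest in each direction of the mitochondrial translation list. Other members, Mrpl44, Mrpl53 and Mrps18a among them, were named outside this rule after their values were seen. Members and lists were chosen with earlier results of these data known. On the translation list Mtrf1, Mtg1, Iars2 and Mars2 were not found, nor was the urothelium marker Upk3b.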

Additional observations from a re-analysis of the deposited data

How the results depend on the processing

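No paired analysis was possible because the groups hold a single library each. Counts within 1.5 times, and medians with the same sign and side of 1, are taken as unchanged, which held for 104 values over the lists and their alternatives. The other 51 follow.

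For the mitochondrial ribosomal protein genes, a pseudocount of 10 gave 2 higher and 14 lower. The lower ones numbered 8 by the median ratio, 8 by the 75th percentile, 10 with equal sums without the red-cell genes, 12 without these and the prostatein genes (both chosen after seeing the data) and 7 at 4-fold. With FPKM of at least 1 in both libraries 1 was higher and the median was -1.01. The 5 members alone at their locus, of which Mrpl40 and Mrps22 were detected, gave 0 higher, 1 lower and a median of -1.21. For large subunit genes, a pseudocount of 10 gave 1 higher and 6 lower, equal sums 11 lower, the median ratio 5 lower, the 75th percentile 5 lower and 4-fold 4 lower, and detection in both libraries gave 0 higher and a median of -1.01. For small subunit genes, a pseudocount of 10 gave 1 higher, the median ratio 5 higher, 3 lower and a median of 0.051, the 75th percentile 5 higher and 3 lower, 4-fold 3 lower, and detection in both libraries 1 higher and a median of -1.01.

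For the other genes of mitochondrial translation, a pseudocount of 10 gave 1 higher and 9 lower, the median ratio 11 lower and a median of 0.24, the 75th percentile 11 lower and 0.19, 4-fold 4 higher and 9 lower, detection in both libraries 0 higher and FPKM of at least 5 gave 2 higher. For all number-only genes the pseudocount of 10 gave 370 higher and 1770 lower, the median ratio 4207 and 1652 with a median of 0.46, the 75th percentile 4057 and 1758 with a median of 0.39, and 4-fold 1059 and 1185. Detection in both libraries gave 506 higher and FPKM of at least 5 gave 1041. Filters and limits change how many genes can be counted, and each rescaling raises all UUO values by 1 factor. Of the single members, Mrpl43 reversed to -1.63 summed over its whole locus and to -2.05 over itself and noncoding entries. Mrps30 reversed to -0.88 in both sums, and Mrps31, within 2-fold, turned from 0.24 to -0.78. By the median ratio, 3 of the 24 members followed singly turned sign, Mrpl52 to 0.34, Mrpl54 to 0.63 and Mrps22 to 0.67. Of these 24, 2 lost their 2-fold call, Mrps18b at -0.91 and Mrpl27 at -0.20, and 4 gained one, Mrps14, Mrpl35, Mrpl17 and Mrps31. The 75th percentile turned 3, lost 2 and gained 3, equal sums turned 2 and lost 1, and the pseudocount of 10 lost 8 calls.

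Since a rescaling moves members and all genes alike, it says little of the gap between their medians. That gap, members minus all genes, was -0.41 as deposited and -0.10 among genes at FPKM of at least 5. Without replicates and at about 2 fragments per FPKM unit on 1000 bases, differences of low members are not resolved.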
